A study of Homo sapiens with 6 samples.

Results

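The 46 genes described here encode proteoglycans, the hyaluronan receptor CD44, and the enzymes that make, sulfate and break down hyaluronan, heparan sulfate and chondroitin sulfate. They were taken by symbol from a table of 58884 genes, and each symbol had a single row. Expression was measured by RNA sequencing in DBTRG, an established human glioblastoma cell line labelled wild type. In 1 group the cells grew in 2D on a rigid dish and in the other in 3D in a soft gel, both for 5 days, with 3 libraries in each group. The labels name no drug, no gel material and no batch. Whether the replicates came from separate cultures is not stated, so each p-value reflects the spread among these 6 libraries alone, and that spread may be technical. A single cell line stands for the tumour here.

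Proteoglycans are core proteins that carry long, sulfated sugar chains called glycosaminoglycans. Syndecans and glypicans hold heparan sulfate at the cell surface, where its sulfation pattern sets which growth factors, chemokines and enzymes can bind. Versican, agrin, perlecan and the small leucine-rich proteoglycans lie in the matrix. Hyaluronan is an unsulfated chain with no core protein, spun out at the plasma membrane by the HAS enzymes, and it is a main component of brain matrix. CD44 is its chief surface receptor in glioma cells.

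In soft gel, 8 of the 40 tested genes were higher and 2 were lower, while 30 did not pass. In bulk RNA, a change in the number of cells with a transcript and a change in its amount per cell cannot be told apart. HS3ST1, a heparan sulfate 3-O-sulfotransferase, had the largest rise, 3.51-fold, and HPSE, the heparanase that cuts heparan sulfate chains, fell 2.07-fold. The hyaluronan synthase gene HAS2 rose 1.89-fold. The other genes that rose were HYAL1, GPC2, LUM, CHPF, HS2ST1 and CD44, and SDC4 fell. The threshold was an adjusted p of 0.05 in edgeR's quasi-likelihood test, with Benjamini-Hochberg adjustment over the 16098 genes that passed the low-count filter. The called share was 25% of the tested genes described here, against 28.6% of all genes tested, so these genes were not called more often than the table as a whole. By direction, 20% were higher against 15.4% of all genes, and 5% were lower against 13.2%. The counts by role given below are to be read beside these shares of all genes. The groups did not overlap for 16 of the 40 (40%, against 44.6% of all genes). The median log2 fold change over the 40 was 0.04, against 0.05 over all genes. A change of at least 2-fold was called for 5 of the 40 (12.5%, against 8.66%): HS3ST1, HYAL1, GPC2, LUM and HPSE.

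The count of 10 called genes rested on several libraries. Omitting rigid dish 2 left 4, omitting soft gel 1 also left 4, omitting soft gel 2 left 5, and omitting soft gel 3 gave 13. Over all genes, the number called went from 4603 to 2026, 1963, 1803 and 5337 under these omissions. The shifts were therefore in the same directions in the table as a whole. Omitting rigid dish 3 left 7 (3180 over all genes), and omitting rigid dish 1 left 10 (6164 over all genes). HS3ST1, HAS2 and HPSE kept their calls under all 16 alternatives run, and the other 7 lost theirs under at least 1. In the authors' deposited table, 6 of the 46 genes were higher and 3 lower at an adjusted p below 0.05, without CD44 and LUM and with HS6ST2 among the lower ones. The authors' own mark of significance was given to only 3 of the 46: HS3ST1, HYAL1 and HPSE.

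**Figure D1:**
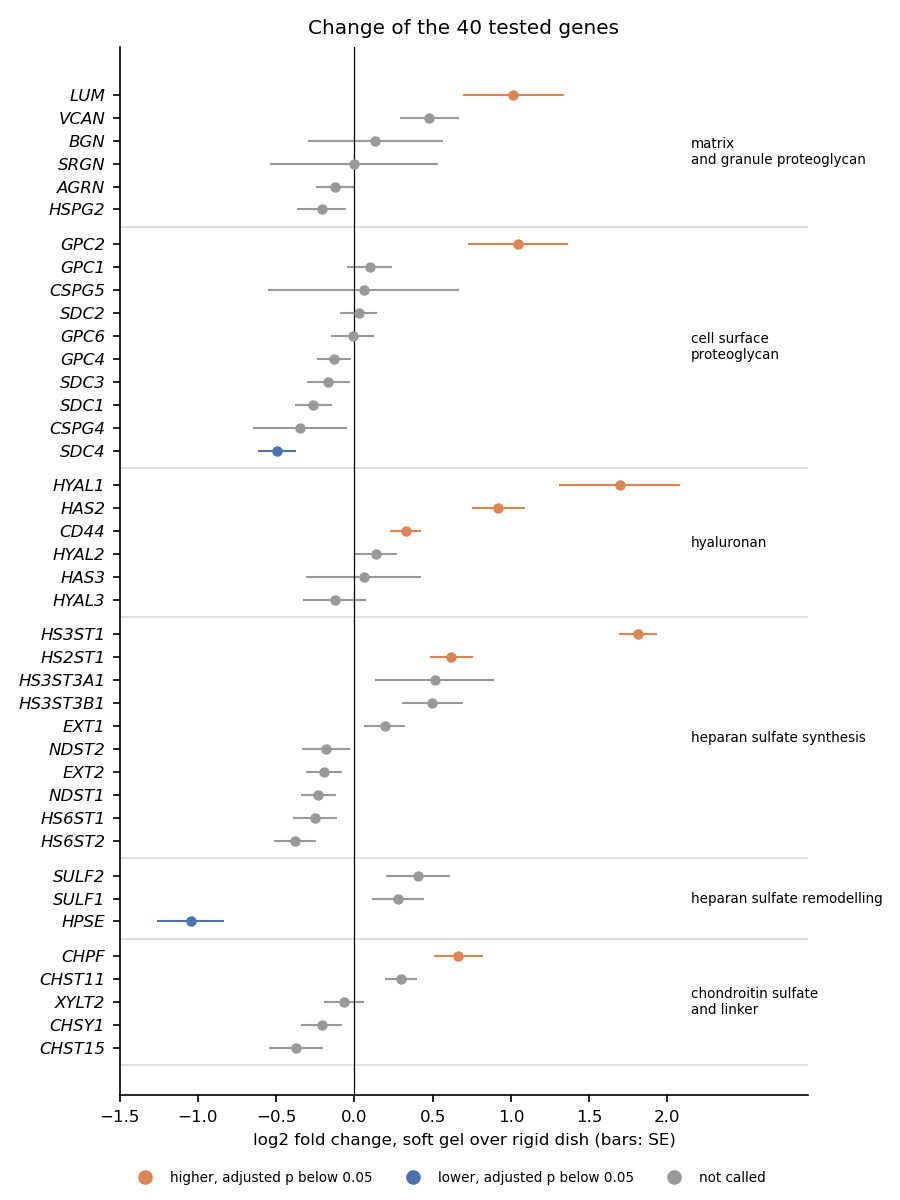
Log2 fold change of soft gel over rigid dish (horizontal axis) for the 40 tested genes, grouped by role. Points are edgeR estimates, bars are 1 standard error, and colours mark genes higher, lower or not called. HS3ST1 lies at 1.81 and HPSE at -1.05, while the 30 genes not called lie between -0.38 and 0.51.

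Library totals ran from 20911363 to 25901499 counts, and the upper limit for a gene with 0 counts (3 counts) lay between 0.112 and 0.141 CPM (TMM-scaled counts relative to library size). On the second principal component, with 17.3% of the variance, rigid dish 1 (45.95) stood apart from rigid dish 2 (-4.50) and rigid dish 3 (-24.82), and soft gel 3 (-23.38) from soft gel 1 (6.32) and soft gel 2 (0.43). Of the 9 glial markers, SOX2 rose from 62.2 to 93.7 CPM and NES, VIM and EGFR fell but stayed at 159, 2618 and 98.6 CPM in soft gel. OLIG2 had 0 counts in all 6 libraries and GFAP 6.53 to 39.06 counts. S100B was higher in every soft gel library (means of 0.653 and 1.30 CPM) and did not pass (edgeR adjusted p = 0.129), and AQP4 and CHI3L1 overlapped between groups. Of 6 endothelial markers, PECAM1, CDH5, VWF and CLDN5 had 0 to 15 counts per library, and the 2 tested did not pass: KDR had 33 to 79 counts and was higher in every soft gel library (edgeR adjusted p = 0.0604), and TEK had 8 to 46 counts and was lower in every soft gel library (0.0904). Of 8 myeloid markers, CD68 rose, CSF1R had 6 to 23 counts and did not pass, and the other 6 had 0 to 14 counts, with AIF1 and TYROBP higher in every soft gel library. Of the fibroblast list, 3 of 7 markers fell in soft gel (COL1A1, PDGFRB and THY1). PDGFRA (2.42 CPM on the rigid dish, 3.42 in soft gel) and COL1A2 (1.90 and 1.77 CPM) overlapped between groups and did not pass. COL3A1 (0 to 6 counts) and FAP (0 to 2) were close to 0. The epithelial keratins KRT8 and KRT18 fell, with EPCAM at 0 to 3 counts and CDH1 at 0 to 6. KRT5 (0 to 36 counts) and KRT14 (0 to 7) were lower in every soft gel library and were not tested. Of 5 neuronal markers MAP2 rose, TUBB3 fell and RBFOX3 had 0 to 8 counts. SNAP25 (9.89 CPM on the rigid dish, 7.80 in soft gel) and SYT1 (1.78 and 2.02 CPM) overlapped between groups and did not pass. The part of these marker changes in the results below was not tested.

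By TPM, a level per transcript length that allows genes to be compared, CD44 was far above the rest. It held 67.3% ± 0.715 of the summed TPM of all 46 genes on the rigid dish against 69.7% ± 1.08 in soft gel (SD, n = 3 each). Next on the rigid dish came SDC1 at 155 TPM, SDC2 at 110 TPM, AGRN at 95.3 TPM, CHPF at 81.5 TPM, VCAN at 79.5 TPM and EXT2 at 77.9 TPM. At the other end, DCN (decorin) and HS3ST2 had 0 counts in all libraries. ACAN (aggrecan) had 0 to 2 counts, GPC3 0 to 2, HAS1 0 to 2 and XYLT1 0 to 2, so these 6 genes were not tested. BGN (biglycan), SRGN (serglycin, an intracellular granule proteoglycan) and CSPG5 (neuroglycan C) passed the filter at 10 to 21, 5 to 17 and 2 to 18 counts per library, and none of these 3 passed the test.

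**Figure D2:**
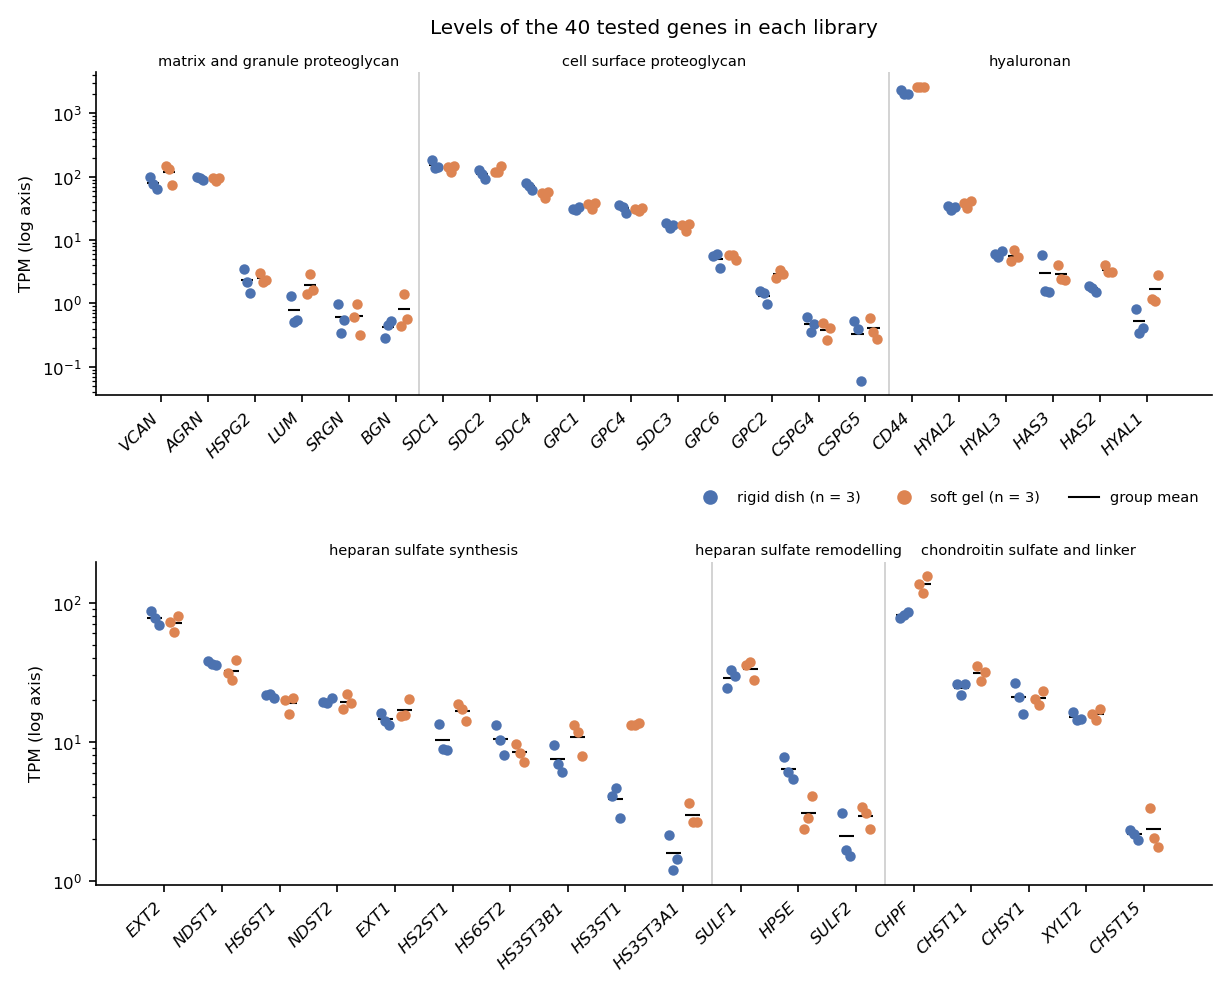
TPM (log axis) of the 40 tested genes in each library, ordered by level within each role, with blue points for the 3 rigid dish libraries, orange points for the 3 soft gel libraries and black lines for group means. CD44 stands highest, with means of 2125 and 2608 TPM, and HS3ST1 and HPSE show the groups apart in opposite directions.

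Heparan sulfate enzymes held both the largest rise and the largest fall. The chain is built by the EXT1 and EXT2 polymerase, then N-sulfated by NDST enzymes and sulfated by HS2ST1, the HS6ST enzymes and finally the HS3ST enzymes, whose rare 3-O-sulfate groups complete the antithrombin binding site and other specialised binding sites. Outside the cell, SULF1 and SULF2 remove sulfate groups and HPSE cuts the chain. Of 10 tested synthesis genes, 2 rose (HS3ST1 and HS2ST1) and 0 fell, where 15.4% of all genes rose and 13.2% fell. Of the 3 remodelling genes, HPSE fell and SULF1 and SULF2 did not pass.

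HS3ST1 (ENSG00000002587, hg38 chromosome 4, 11393150 to 11429765, minus strand) stood at 10.8, 10.8 and 11.6 CPM on rigid dishes 1 to 3 and at 37.4, 40.9 and 38.3 CPM in soft gels 1 to 3. The groups lay far apart, with little spread within either. The log2 fold change was 1.81 (SE 0.122, edgeR adjusted p = 0.000105), and it ran from 1.58 to 1.85 over the alternatives. HPSE (ENSG00000173083, chromosome 4, 83292461 to 83335153, minus strand) stood at 21.3, 19.8 and 20.4 CPM on rigid dishes 1 to 3 and at 7.33, 9.01 and 13.5 CPM in soft gels 1 to 3. All soft gel libraries lay below all rigid dish libraries, with soft gel 3 closest to them. The log2 fold change was -1.05 (SE 0.214, edgeR adjusted p = 0.00842), and it ran from -1.39 to -0.87 over the alternatives.

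HPSE had the largest fall, so the 250 bases before its outermost RefSeq start, of 3 annotated, are shown (GRCh38.p14, chr4:83335154-83335403, read 5′ to 3′ on the minus strand). This start is also the GENCODE start of the gene. The RefSeq start of HS3ST1 lies 871 bases inside the GENCODE gene, and all 250 bases before it fall in GENCODE exons of HS3ST1, so that window is not shown. Capitals mark matches to 6 short motifs, searched on both strands with overlaps allowed. The TATA box was searched as TATAAA and the GC box as GGGCGG. The E-box was searched as CACGTG and the AP-1 motif as TGANTCA. The CRE was searched as TGACGTCA and the TEAD motif as GGAATG.
HPSE: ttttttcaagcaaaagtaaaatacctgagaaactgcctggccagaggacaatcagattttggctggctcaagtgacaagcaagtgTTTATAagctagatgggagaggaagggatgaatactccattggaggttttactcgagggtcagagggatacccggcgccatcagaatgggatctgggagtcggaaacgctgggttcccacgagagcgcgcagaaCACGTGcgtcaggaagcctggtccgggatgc
The HPSE window was 51.6% G and C and held a TATA box match on the opposite strand, beginning 165 bases before the start, and an E-box match beginning 31 bases before it. Among 34943 windows of the same length in the table, 42.5% held the GC box letters, 10.8% the TATA box, 6.32% the E-box, 6.59% the AP-1, 1.63% the CRE and 11.9% the TEAD letters. Of the 46 genes, 37 had a window before a RefSeq start, and these letters were in 30, 3, 4, 1, 4 and 4 of them in the same order. The 37 are 1 window per gene, at its outermost start. The 34943 are all distinct windows, with several starts for some genes, so the sets are not alike. A match describes letters only and shows no binding.

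HS2ST1, the 2-O-sulfotransferase that acts on iduronic acid, stood at 46.8, 39.7 and 39.1 CPM on rigid dishes 1 to 3 and at 69.8, 69.3 and 54.0 CPM in soft gels 1 to 3. Soft gel 3 was the lowest of its group and still above every rigid dish library. HS2ST1 rose 1.54-fold (log2 fold change 0.62, SE 0.139, edgeR adjusted p = 0.0123). Leaving out rigid dish 2 or 3, or soft gel 1 or 2, took the adjusted p to between 0.0564 and 0.0652, and TPM values gave 0.0726 and 0.0676. HS2ST1 shares 9.7% of its exon bases with AC093155.3, which had 5 counts over the 6 libraries.

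Among the 4 HS3ST genes described here, the make-up of TPM differed between the groups. HS3ST5, from the list of other heparan sulfate synthesis genes, had 1.90 TPM on the rigid dish and 1.83 TPM in soft gel and is not in these shares. HS3ST1 made up 26.1%, 36.5% and 27.3% of the summed TPM of the 4 HS3ST genes described here on rigid dishes 1 to 3, and 44.05%, 48.1% and 56.5% in soft gels 1 to 3. On the rigid dish HS3ST3B1 had the highest TPM of the 4, at 7.52 TPM against 3.87 TPM for HS3ST1, while in soft gel HS3ST1 had 13.4 TPM and HS3ST3B1 10.9 TPM. HS3ST3B1 itself stood at 26.2, 23.1 and 22.2 CPM on rigid dishes 1 to 3 and at 39.6, 37.9 and 23.3 CPM in soft gels 1 to 3, so soft gel 3 overlapped the rigid dish. Its log2 fold change of 0.50 did not pass (edgeR adjusted p = 0.0834). HS3ST3B1 passed in 2 of the 16 alternatives, without soft gel 3 (0.642, adjusted p = 0.00955) and with a replicate block (0.0213). HS3ST3A1 and HS3ST3B1 have near-identical catalytic domains, and HS3ST3A1 had 11.59 to 32.80 counts per library, so the division of reads between them is uncertain.

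**Figure D3:**
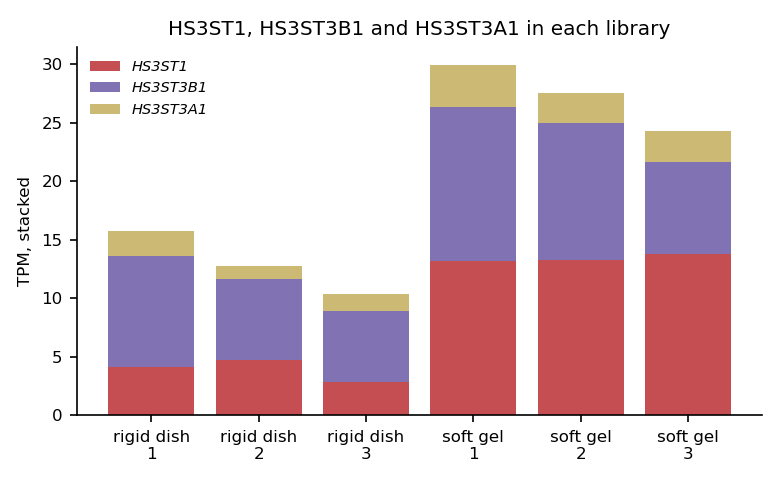
Stacked TPM of HS3ST1, HS3ST3B1 and HS3ST3A1 in each of the 6 libraries (HS3ST2 had 0 counts and is not drawn). The HS3ST1 segment is 2.83 to 4.67 TPM in the rigid dish libraries and 13.2 to 13.7 TPM in the soft gel libraries.

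The other chain-building and sulfation genes did not pass. EXT2, the highest of them by TPM, stood at 166.6, 175.6 and 171.7 CPM on rigid dishes 1 to 3 and at 147.3, 133.0 and 169.5 CPM in soft gels 1 to 3, with overlap. EXT2 passed in 1 of the 16 alternatives, without soft gel 3 (edgeR adjusted p = 0.0456). EXT1 was at 34.5 ± 0.907 and 39.5 ± 5.89 CPM (SD, n = 3). HS6ST1 was at 62.7 ± 6.09 and 52.7 ± 7.86 CPM, and NDST2 at 19.5 ± 2.26 and 17.2 ± 2.32 CPM. For NDST1, the N-deacetylase and N-sulfotransferase that starts chain sulfation, every soft gel library (141.6, 130.5 and 157.9 CPM) was below every rigid dish library (159.9, 169.3 and 175.2 CPM). NDST1 did not pass (edgeR adjusted p = 0.143). Of the 16 alternatives, it passed only without soft gel 3 (0.0402). HS6ST2, a 6-O-sulfotransferase, also did not overlap, at 36.1, 31.7 and 28.0 CPM against 25.6, 24.9 and 22.9 CPM in soft gel. Its log2 fold change of -0.38 just missed the threshold (edgeR adjusted p = 0.0591). HS6ST2 passed in 5 of the 16 alternatives, among them without rigid dish 3 (-0.537, adjusted p = 0.0309), DESeq2 size factors (0.0403) and DESeq2 (0.0269). It did not pass in the other 11, among them TPM values (0.42 and 0.407). The exons of NDST2 are shared over 82.9% of their bases with a same-strand gene (AC022400.6), so its level is uncertain. SULF1 supplied 93.0% ± 3.72 of the TPM of the 2 extracellular sulfatases on the rigid dish against 91.9% ± 0.604 in soft gel, and its 61.3, 93.5 and 74.2 CPM on rigid dishes 1 to 3 overlapped the 97.3, 101.4 and 79.3 CPM in soft gels 1 to 3. SULF2, at 4.34 ± 0.396 and 5.75 ± 0.968 CPM, was higher in each soft gel library and did not pass (edgeR adjusted p = 0.157). It shares 1.4% of its exon bases with NCOA3 on the opposite strand.

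On the hyaluronan side, 3 of 6 tested genes rose and 0 fell, where 15.4% of all genes rose and 13.2% fell. HAS2, the synthase that makes long hyaluronan chains (ENSG00000170961, chromosome 8, 121612116 to 121641390, minus strand), stood at 5.13, 5.60 and 5.198 CPM on rigid dishes 1 to 3 and at 11.3, 9.34 and 9.48 CPM in soft gels 1 to 3. The soft gel libraries all lay well above the rigid dish libraries. HAS2 had a log2 fold change of 0.92 (standard error 0.167, edgeR adjusted p = 0.00529), with adjusted p from 0.000841 to 0.0479 over the alternatives. An antisense gene, HAS2-AS1, shares 4.8% of the HAS2 exon bases and had 55 counts over the 6 libraries, against 1090 for HAS2. With no strand setting stated, reads from the shared bases cannot be assigned to one of them.

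HAS3, the other expressed synthase gene, changed direction with the library left out. It stood at 12.2, 4.95 and 4.21 CPM on rigid dishes 1 to 3 and at 8.77, 7.06 and 6.47 CPM in soft gels 1 to 3. Rigid dish 1 was the highest of all 6 libraries and the other 2 rigid dish libraries were the lowest. The log2 fold change was 0.06 (edgeR adjusted p = 0.917). Without rigid dish 1 it was 0.69 (adjusted p = 0.0292), and without rigid dish 3 it was -0.275 (0.587). HAS3 supplied 74.9% of hyaluronan synthase TPM in rigid dish 1 against 41.9% to 50% in the other 5 libraries. HAS3 exons share 6.9% of their bases with CHTF8 on the opposite strand, which had 13021 counts over the 6 libraries against 1059 for HAS3, and the part of CHTF8 reads in these values was not tested.

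CD44 (ENSG00000026508, chromosome 11, 35138870 to 35232402, plus strand) was at 2654, 2653 and 2480 CPM on rigid dishes 1 to 3 and at 3228, 3199 and 3345 CPM in soft gels 1 to 3. The groups did not overlap, and the rise was small, 1.25-fold (log2 fold change 0.33, SE 0.1, edgeR adjusted p = 0.0371). The call was lost in 10 of 16 alternatives, among them DESeq2 size factors (adjusted p = 0.0733), TPM values (0.0924 and 0.0803) and omitting any library but rigid dish 1 (0.0981 to 0.194). CD44 has many splice forms, which a value per gene does not separate.

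Hyaluronidases differed from each other. HYAL1, a lysosomal hyaluronidase, stood at 0.823, 0.560 and 0.448 CPM on rigid dishes 1 to 3 and at 1.60, 1.66 and 2.77 CPM in soft gels 1 to 3, from 22, 13 and 10 counts and 39, 41 and 59 counts. All soft gel libraries were higher, and soft gel 3 was the highest. HYAL1 rose 3.24-fold (log2 fold change 1.70, SE 0.387, edgeR adjusted p = 0.0131), and the adjusted p was 0.056 when rigid dish 2 was omitted and 0.075 and 0.0661 with TPM values. HYAL2 is the membrane-anchored hyaluronidase that makes the first cuts. Of the summed TPM of HYAL1, HYAL2 and HYAL3 alone, HYAL2 supplied 83.0% ± 0.783 on the rigid dish against 83.3% ± 3.52 in soft gel. HYAL1 supplied 1.32% ± 0.567 and 3.72% ± 1.70. CEMIP2, from the list of other hyaluronan breakdown and binding genes, had 44.3 and 51.3 TPM, above HYAL2 at 32.2 and 37.1 TPM. HYAL2 (46.6 ± 4.13 and 51.3 ± 7.40 CPM) and HYAL3 (5.91 ± 1.05 and 5.40 ± 0.561 CPM) overlapped between groups. The 3 HYAL genes lie next to each other on chromosome 3, and HYAL2 and HYAL3 share exon bases with TUSC2, IFRD2 and NAA80, so their levels are less certain.

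**Figure D4:**
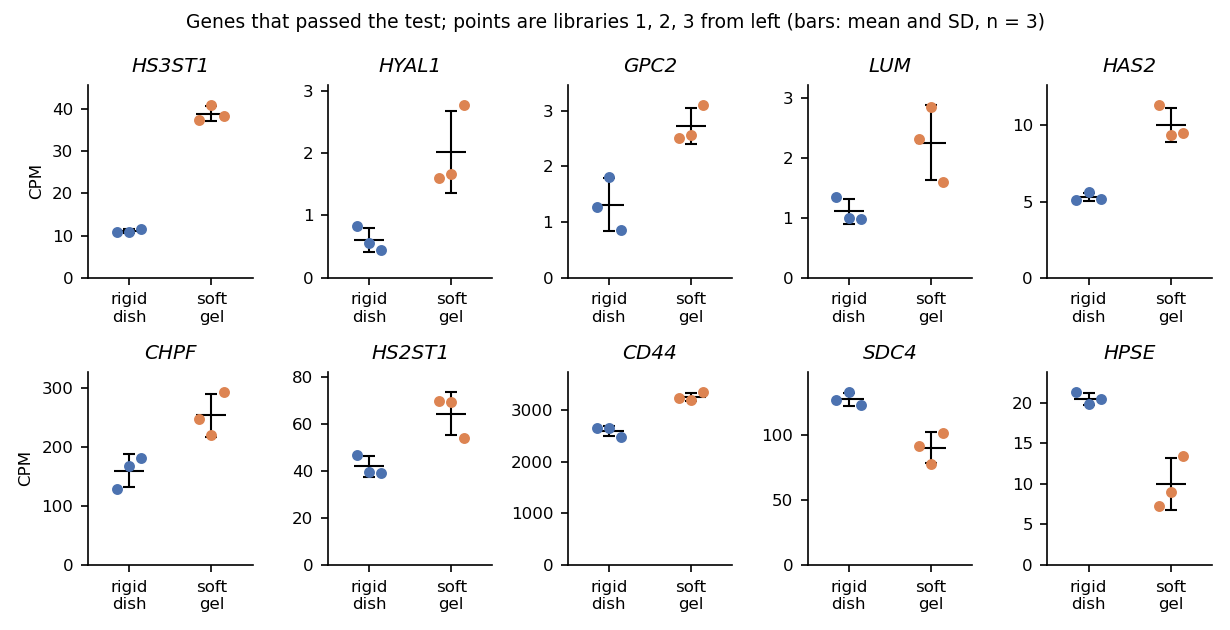
CPM in each library (points, libraries 1 to 3 from left to right) with group mean and SD for the 10 genes that passed the test, ordered by log2 fold change; each vertical axis starts at 0. The groups do not overlap for any of the 10, and HYAL1, GPC2 and LUM lie below 4 CPM in all libraries.

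Among cell surface proteoglycans, 1 of 10 tested genes rose and 1 fell. SDC4, a syndecan that sits in focal adhesions with integrins (ENSG00000124145, chromosome 20, 45325288 to 45348424, minus strand), stood at 127, 133 and 123 CPM on rigid dishes 1 to 3 and at 91.7, 78.1 and 101.6 CPM in soft gels 1 to 3. All soft gel libraries were lower. The fall was 1.41-fold (log2 fold change -0.50, SE 0.122, edgeR adjusted p = 0.0173). Omitting rigid dish 2 gave an adjusted p of 0.081, omitting soft gel 1 gave 0.0672, omitting soft gel 2 gave 0.073, and TPM values gave 0.0821 and 0.0832.

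The other syndecans did not pass. SDC1 stood at 354.4, 315.1 and 362.6 CPM on rigid dishes 1 to 3 and at 290.8, 254.0 and 314.5 CPM in soft gels 1 to 3. The highest soft gel library was just below the lowest rigid dish library (edgeR adjusted p = 0.118). SDC1 passed in 2 of the 16 alternatives, without soft gel 3 (0.0449) and with a replicate block (0.0452). SDC2, the syndecan of mesenchymal cells, was at 174 ± 14.6 and 178 ± 17.5 CPM, and SDC3 at 67.4 ± 7.17 and 60.0 ± 8.57 CPM. For SDC2 the 95% interval of the log2 fold change, -0.24 to 0.29, leaves room for small changes in either direction. As shares of syndecan TPM, SDC4 had 20.2% ± 1.15 on the rigid dish against 15.9% ± 0.744 in soft gel, and SDC2 31.0% ± 1.55 and 38.4% ± 2.77. The groups did not overlap in either share. The log2 ratio of SDC2 group means, soft gel over rigid dish, was 0.22 by TPM and 0.03 by CPM, so the size of its share change depends on the unit.

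Glypicans, which are held to the membrane by a lipid anchor, were led by GPC4 and GPC1. Of the summed TPM of the glypicans among the 46 genes, GPC4 had 45.8% ± 4.09 on the rigid dish against 41.4% ± 0.518 in soft gel. GPC1 had 44.95% ± 5.77 and 47.3% ± 2.29. GPC1 (80.8 ± 11.9 and 86.4 ± 11.5 CPM), GPC4 (117 ± 8.66 and 107 ± 7.75 CPM) and GPC6 (24.7 ± 2.52 and 24.5 ± 2.04 CPM) overlapped between groups. GPC2, a glypican known from developing neurons, stood at 1.27, 1.81 and 0.851 CPM on rigid dishes 1 to 3 and at 2.51, 2.56 and 3.10 CPM in soft gels 1 to 3, from 19 to 42 and 61 to 66 counts. The soft gel libraries were all higher. GPC2 rose 2.07-fold (log2 fold change 1.05, SE 0.319, edgeR adjusted p = 0.0371). At these low counts the call was lost on leaving out any library except rigid dish 2 (adjusted p = 0.0519 to 0.126). CSPG4 (NG2), a chondroitin sulfate proteoglycan of oligodendrocyte progenitors and pericytes, had only 2.93 ± 0.602 and 2.31 ± 0.678 CPM. CSPG4 has pseudogene copies, so its level is uncertain.

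Among matrix and granule proteoglycans, 1 of 6 tested genes rose. VCAN (versican), the large hyaluronan-binding chondroitin sulfate proteoglycan, and AGRN (agrin), a basement membrane heparan sulfate proteoglycan, supplied nearly all of the TPM of this group. VCAN stood at 414, 380 and 338 CPM on rigid dishes 1 to 3 and at 598, 613 and 366 CPM in soft gels 1 to 3. Soft gels 1 and 2 were above all rigid dish libraries, while soft gel 3 lay among them. The log2 fold change of 0.48 did not pass (edgeR adjusted p = 0.084), and without soft gel 3 it was 0.621 (adjusted p = 0.00923). This was 1 of 3 alternatives, of 16, in which VCAN passed. VCAN had 58.95% and 58.4% of the TPM of these 8 genes in soft gels 1 and 2 and 40.5% to 48.2% in the other 4 libraries. AGRN was at 431, 518 and 528 CPM and at 448, 420 and 486 CPM in soft gel, with overlap and a 95% interval of the log2 fold change of -0.39 to 0.14.

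LUM (lumican), a small leucine-rich proteoglycan that regulates collagen fibrils, stood at 1.35, 0.991 and 0.986 CPM on rigid dishes 1 to 3 and at 2.31, 2.84 and 1.59 CPM in soft gels 1 to 3, from 22 to 36 and 34 to 70 counts. The groups did not overlap, with soft gel 3 closest to the rigid dish. LUM rose 2.02-fold (log2 fold change 1.016, SE 0.323, edgeR adjusted p = 0.0431). The call was lost with DESeq2 (0.0755), limma-voom (0.0514) and TPM values (0.0875 and 0.0906). Omitting rigid dish 2 or 3, or soft gel 1 or 2, took the adjusted p to between 0.123 and 0.173. HSPG2 (perlecan) was at 16.4 ± 1.96 and 14.2 ± 1.65 CPM and did not pass (edgeR adjusted p = 0.335).

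Of the 5 tested chondroitin sulfate and linker enzymes, CHPF rose and 0 fell. CHPF encodes chondroitin polymerizing factor, which works with CHSY1 to extend the chain (ENSG00000123989, chromosome 2, 219538947 to 219543787, minus strand). It stood at 129, 168 and 182 CPM on rigid dishes 1 to 3 and at 248, 220 and 293 CPM in soft gels 1 to 3. The groups did not overlap, and CHPF rose 1.59-fold (log2 fold change 0.67, SE 0.157, edgeR adjusted p = 0.0149). The adjusted p was 0.052 when rigid dish 2 was omitted and 0.0535 when soft gel 1 was. CHPF shares 3.7% of its exon bases with TMEM198 on the opposite strand, which had 329 counts against 29104 for CHPF. CHSY1, the partner of CHPF, had 66.1 ± 7.58 CPM on the rigid dish and 57.2 ± 6.25 CPM in soft gel and did not pass (edgeR adjusted p = 0.253).

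CHST11, a chondroitin 4-O-sulfotransferase, was at 93.9, 95.1 and 91.6 CPM on rigid dishes 1 to 3 and at 122.7, 110.4 and 112.3 CPM in soft gels 1 to 3. All soft gel libraries were higher, but the log2 fold change of 0.30 just missed the threshold (edgeR adjusted p = 0.053). CHST11 passed in 4 of the 16 alternatives, among them upper quartile factors (0.0393) and protein-coding genes only (0.0311). It did not pass in the other 12, among them no low-count filter (0.304) and DESeq2 (0.147). CHST15, which adds a further sulfate to chondroitin 4-sulfate, gave different directions by unit. By CPM it was lower in every soft gel library (4.90, 6.01 and 5.49 CPM against 6.74, 7.41 and 7.12 CPM, edgeR adjusted p = 0.13). By the authors' TPM it was 3.34, 2.04 and 1.75 in soft gel against 2.32, 2.19 and 1.97 on the rigid dish, so that soft gel 1 was the highest library. XYLT2, the xylosyltransferase that starts the linker on the core protein, overlapped between groups at 37.2 ± 3.48 and 35.6 ± 3.48 CPM.

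A further 82 genes of glycosaminoglycan metabolism, in 6 lists, were examined to place these results. Of them, 55 passed the low-count filter, and 17 rose and 0 fell in soft gel, where 15.4% of all genes rose and 13.2% fell. At an unadjusted p below 0.05 there were 26 of the 55, where 43% of all genes tested passed that limit, and the median log2 fold change was 0.34, against 0.05 over all genes. The count of 17 dropped to 6 when rigid dish 2 was omitted, 10 for rigid dish 3, 10 for soft gel 1 and 9 for soft gel 2. Over all genes, the number called higher dropped from 2480 to 1090, 1371, 1099 and 1006 under these omissions. Of 13 genes that make the linker and supply sugar and sulfate donors, 0 passed (edgeR), with 4 at an unadjusted p below 0.05. Of 6 other heparan sulfate synthesis genes, 1 rose: HS6ST3, another 6-O-sulfotransferase gene, from 4.70 ± 1.14 to 11.9 ± 2.44 CPM (log2 fold change 1.33, edgeR adjusted p = 0.00444). Of 11 other chondroitin and dermatan sulfate synthesis genes, 3 rose, among them DSEL, a dermatan sulfate epimerase, from 41.4 ± 0.852 to 75.1 ± 11.5 CPM and CHST12 from 37.5 ± 1.59 to 48.6 ± 5.37 CPM. Of 7 other core and link proteins, 3 rose, among them ESM1 (endocan), from 4.45 ± 2.00 to 13.2 ± 2.05 CPM, and SPOCK1 (testican-1), from 1214 ± 26.1 to 1577 ± 44.5 CPM. Of 4 genes for hyaluronan binding and breakdown, 1 rose, LAYN (layilin), a hyaluronan receptor, from 72.9 ± 11.9 to 103 ± 5.79 CPM. The calls of CHST12, SPOCK1 and LAYN were lost under 12, 8 and 7 of the 16 alternatives.

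Lysosomal enzymes that take glycosaminoglycans apart held most of these rises. Of 14 tested, 9 were higher and 0 lower, where 15.4% of all genes were higher and 13.2% lower. Their median log2 fold change was 0.51, against 0.05 over all genes. IDUA, the iduronidase, stood at 15.9, 20.3 and 18.2 CPM on rigid dishes 1 to 3 and at 30.9, 29.8 and 40.4 CPM in soft gels 1 to 3. The groups did not overlap (log2 fold change 0.89, edgeR adjusted p = 0.00518). The 9 dropped to 3 when rigid dish 2 was omitted, 5 for rigid dish 3, 4 for soft gel 1 and 4 for soft gel 2. Under the same omissions, all genes called higher dropped from 2480 to 1090, 1371, 1099 and 1006. CD68, a lysosomal membrane protein that is also a marker of myeloid cells, rose from 12.01 ± 2.54 to 41.1 ± 3.82 CPM, while the other 7 myeloid markers did not exceed 23 counts in any library. The part of CD68 in these results was not tested.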

How the data were processed

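TRIzol served for RNA extraction and a TruSeq RNA kit for the libraries, per the labels' protocols. HISAT2, HTSeq and hg38 appear in the submitters' processing notes, without versions or roles. The authors deposited 1 table with expected counts per gene (11.3% to 13.0% of genes per library held decimals), TPM values, and their own comparison, which holds the fold (a linear ratio), its log2, and each p-value before and after adjustment. The tool that made the counts with decimals is not given in the labels or notes used here.

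Counts were rounded, filtered with filterByExpr (minimum count 10), scaled by TMM and tested by quasi-likelihood in edgeR 4.0.16 (R 4.3.3, with limma 3.58.1 and DESeq2 1.42.0 for alternatives), with Benjamini-Hochberg adjustment over all 16098 genes. Each fold change divides soft gel by rigid dish, each standard error was taken from the test statistic, and 95% intervals use the t distribution with the fit's degrees of freedom. CPM values are TMM-scaled, given as means ± SD over 3 libraries. Limits from counts hold for counting error alone, as reads copied by PCR are not separate molecules. The pipeline was tested on simulated data. Gene positions came from GENCODE 29 (99.5% of identifiers matched), and start windows from RefSeq. The genes and lists were chosen with earlier results of these data known. Named genes were all 46 genes, with library values for those that passed at 5 CPM or more or led their role in TPM, and, from each of the 6 other lists, up to 2 higher and 2 lower genes with 5 CPM or more; 1 gene that this rule would name is not reported here. Library values of HYAL1, GPC2, LUM, AGRN, HAS3, HS3ST3B1, HS6ST2, NDST1, CHST11 and CHST15 were added after their values were seen. CEMIP2 and HS3ST5 were also named after their values were seen. Alternatives were other scalings, filters, tests and units, a replicate block, and leaving out each library.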

Additional observations from a re-analysis of the deposited data

How the results depend on the processing

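Of the 10 called genes, 3 (HS3ST1, HAS2 and HPSE) kept their calls under all 16 alternatives, 7 lost theirs under at least 1, and 0 changed direction. Of the 30 not called, 8 gained a call under at least 1 alternative and 11 changed sign. Log2(TPM + 1) gave 2313 changed genes in all, 5 among the 46 and 11 among the 82 other pathway genes, against 4603, 10 and 17, and log2(TPM + 0.1) gave 2287 and 5. On leaving out 1 library, changed genes ran from 1803 to 6164, changed genes among the 46 from 4 to 13, and other pathway genes from 6 to 20. The cause of these shifts was not tested. With the replicate block, changed genes numbered 6442, those among the 46 numbered 15 and the other pathway genes 27. Deviations of same-numbered libraries 1, 2 and 3 correlated at 0.22, 0.01 and 0.31, and those of differently numbered libraries at -0.30 to 0.14. Rigid dish 1 and rigid dish 3 correlated most with the soft gel of the same number, and rigid dish 2 most with soft gel 3 (0.04). With 3 libraries in each group, these values cannot decide whether same-numbered libraries form pairs. HAS3 passed without rigid dish 1 (0.692) and turned negative with no low-count filter (-0.004) and without rigid dish 2 (-0.151), rigid dish 3 (-0.275) or soft gel 1 (-0.079), and CHST15 turned positive with log2(TPM + 1) (0.069) and log2(TPM + 0.1) (0.083). Genes below about 3 CPM, such as HYAL1, GPC2 and LUM, rest on under 100 counts per library.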
